A study of Mus musculus with 8 samples.

Results

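The transcripts of respiratory complexes II to V were measured in injured carotid arteries of mice with and without miR-126, a microRNA known from endothelial cells. Members were chosen by gene name: Sdha, Sdhb, Sdhc, Sdhd and Cyc1, and every name that begins with Uqcr, Atp5, Cox4, Cox5, Cox6, Cox7 or Cox8, without Cox7a1 and Cox8b. The array carried 47 such genes with 70 probes, among 36413 names in all. Of these 47, 45 were tested among 23779 genes, and Cox7b2 and Cox8c were not well above background on any array. By name the rule also takes 4 genes that encode no subunit: Cox4nb (now Emc8, a part of a membrane protein complex of the endoplasmic reticulum), Atp5s (now Dmac2l), Atp5sl (now Dmac2) and Cox7a2l, a factor of respiratory supercomplexes. The other 41 tested genes encode subunits: 4 of complex II, 9 of complex III, 13 of complex IV and 15 of complex V.

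All mice were ApoE-/-, so that both groups lacked apolipoprotein E, which clears lipoproteins from plasma. The control group was miR-126+/+ and the other group miR-126-/-, with 4 mice each and 1 array per mouse. The animals were 6-week-old females with a mixed genetic background, on a western-type diet, and the carotid artery was taken 14 days after wire injury, which strips the endothelium and is followed by neointima growth. The comparison asks how the transcripts of the injured artery differ when miR-126 is absent. How the miR-126 deletion was made, and in which cells, is not given in the sources used here.

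Complexes II, III and IV pass electrons from the citrate cycle and from complex I to oxygen, and complex V uses the proton gradient that complexes I, III and IV build to make ATP. Most subunits are encoded in the nucleus, made in the cytosol and imported, while a few core subunits of complexes III, IV and V are encoded by mitochondrial DNA. Smooth muscle and endothelium of the artery wall hold moderate numbers of mitochondria, while brown fat and skeletal muscle, which can lie next to a dissected artery, hold many.

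Several promoters of these genes are shown because most members differed in the same direction. They come from RefSeq (GRCm38.p6), in which all 47 members were found and 35 had a promoter window of 250 bases before and 50 after the start. The last 150 bases before the start are printed 5′ to 3′ on the gene's strand for Atp5k, Sdhd and Uqcr11, whose genotypes did not overlap in expression, and for Atp5g2, whose genotypes did. Capitals mark matches to the motifs searched, on either strand, other than SP1. Matches in capitals do not overlap each other. Each printed stretch holds such a match, which was not the rule. Of the other members with a window whose genotypes did not overlap, Cox6b1 holds one in these bases. Uqcrc1, Cox5b, Cox7c, Atp5j2 and Atp5d hold none there.
Atp5k, chr5:108434400-108434549, minus strand: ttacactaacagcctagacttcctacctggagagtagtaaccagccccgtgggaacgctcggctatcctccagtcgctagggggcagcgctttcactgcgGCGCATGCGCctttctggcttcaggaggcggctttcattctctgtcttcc
Sdhd, chr9:50603850-50603999, minus strand: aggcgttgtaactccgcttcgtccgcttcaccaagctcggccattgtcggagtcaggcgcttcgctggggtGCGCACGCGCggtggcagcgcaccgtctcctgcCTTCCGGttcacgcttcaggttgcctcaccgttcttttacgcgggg
Uqcr11, chr10:80406822-80406971, minus strand: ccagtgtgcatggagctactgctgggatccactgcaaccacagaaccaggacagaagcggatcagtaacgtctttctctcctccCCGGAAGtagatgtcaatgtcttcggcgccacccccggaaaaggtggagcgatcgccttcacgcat
Atp5g2, chr15:102671048-102671197, minus strand: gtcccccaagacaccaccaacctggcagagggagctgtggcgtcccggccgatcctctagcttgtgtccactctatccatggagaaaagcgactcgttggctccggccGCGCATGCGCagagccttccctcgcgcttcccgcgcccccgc
The capitals in Atp5k and Atp5g2 are the NRF1 motif, which reads GCGCA, any base and then GCGC, beginning at -50 and -42 relative to the start. Sdhd holds it at -79 and the ETS motif of GABP, CCGGAAG, on the other strand at -46, and Uqcr11 holds the GABP motif at -66. NRF1 and GABP are transcription factors long known for nuclear genes of the respiratory chain.

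Counted over the whole 300-base windows, the NRF1 motif was found in 10 of the 35 members (28.6%) and in 5.19% of all 27025 genes with a window. The GABP motif was found in 12 members (34.3%) and in 9.93% of all genes. The YY1 motif AAGATGGC was found in 4 members (11.4%) against 3.19%, and the ERR motif AAGGTCA in 5 (14.3%) against 5.38%. The SP1 motif GGGCGG was about as frequent in the members, with 14 of 35 against 38.2% of all genes, and TATAAA was found in 2 members (5.71%) against 15.7%. Windows existed for 3 genes of complex II, 5 of complex III, 11 of complex IV and 16 of complex V, as taken by name. Sdhc, Cyc1, Uqcrb, Uqcrc2 and Uqcrq were among the members without a window and were not searched. The NRF1 matches lay in 2 genes of complex II (Sdha, Sdhd), 1 of complex III (Uqcrc1), 1 of complex IV (Cox6a1) and 6 of complex V (Atp5c1, Atp5g2, Atp5g3, Atp5h, Atp5k, Atp5o). Genes with this match had both large and small differences in expression, from 0.52 in Uqcrc1 and 0.47 in Atp5k to 0.02 in Atp5g2 and -0.05 in Atp5g3 (log2, given in full below). A match says only that these letters stand in the window.

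Signals are given as log2 of the processed intensity minus the array's 75th percentile, so that a value of 1 above another is a 2-fold difference, and levels of different genes are not compared because each is read by its own probe. On each array 55.9% to 61.5% of 55681 probes exceeded background clearly, 0 spots were saturated, and the 75th percentile was 518.2 to 736.1 intensity units. Pairs of arrays correlated at 0.962 to 0.988. A single slide held the 8 arrays, miR-126+/+ in its row 1 and miR-126-/- in its row 2, so that row and genotype cannot be told apart. A dim area on array miR-126-/- 4 was left out, which removed that array's value for Sdha and Cox8a among the members. It also removed the value of a Uqcrb probe other than the brightest. Smooth muscle markers (8 of 8, among them Acta2 and Myh11) and endothelial markers (8 of 8, among them Pecam1 and Cdh5) were well above background on all 8 arrays, which are the cell types of an artery wall.

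The genes of complexes II to V were mostly higher in miR-126-/- arteries, each by a small amount. Of the 45 members tested, 42 were higher and 3 lower. Their median difference was 0.27 on the log2 scale, with a range from -0.47 to 0.73. Over all 23779 genes, 50.7% were higher and the median difference was 0.00. With limma and Benjamini-Hochberg adjustment over all genes, 0 members passed an adjusted p of 0.05, at which 0.126% of all genes were called (0.0631% higher and 0.0631% lower). The members' adjusted p ran from 0.159 to 0.961. At an unadjusted p under 0.05, 21 members (46.7%) were higher and 0 lower, where 6.63% of all genes were higher and 3.62% lower. In 14 members (31.1%) every miR-126-/- value lay above every miR-126+/+ value, which held for 3.97% of all genes, and in 0 members did every value lie below, which held for 2.45%.

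These counts depend on single arrays of both genotypes. Without miR-126+/+ 1 the members at an unadjusted p under 0.05 numbered 12, and the median difference was 0.22. Without miR-126-/- 3 they numbered 14, and the median difference was 0.21. The members share arrays and mice, so their counts are not independent observations. In tissue RNA, a change in the share of a cell type and a change in RNA per cell cannot be told apart.

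**Figure D1:**
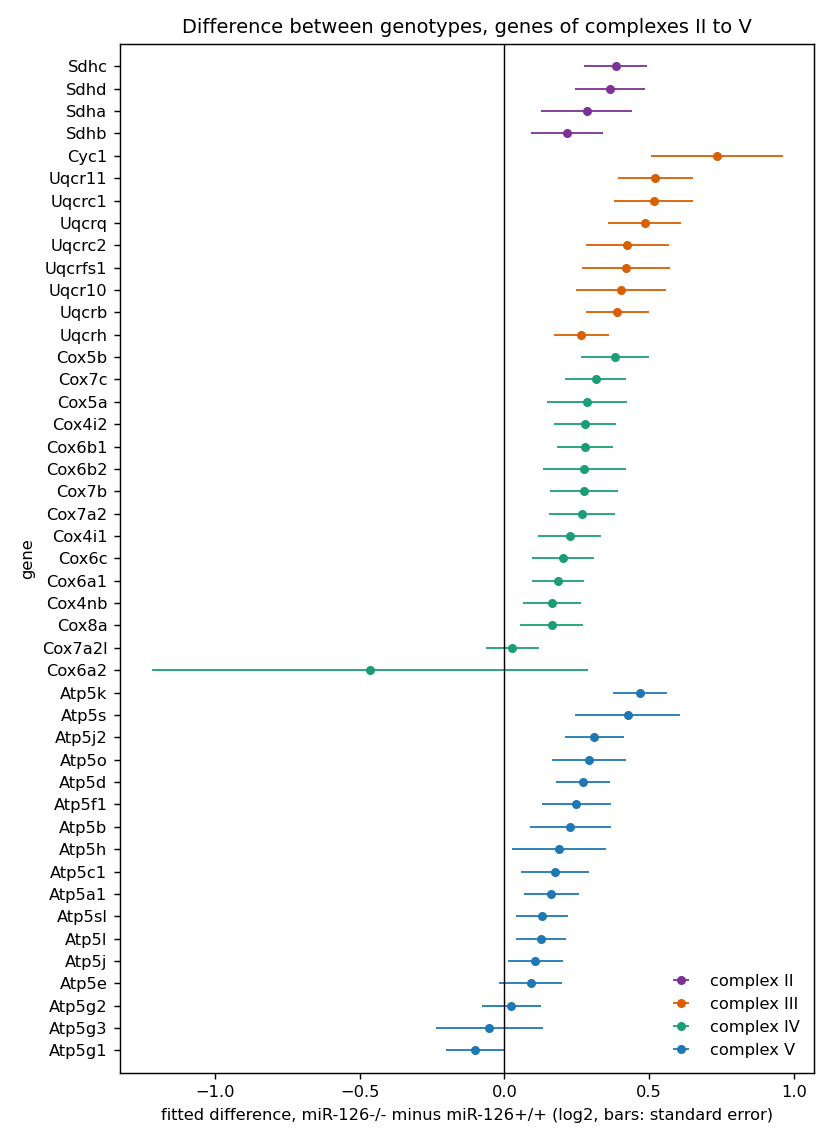
Fitted difference (log2, miR-126-/- minus miR-126+/+) with its standard error for each of the 45 tested genes, grouped and coloured by complex. Complex III genes lie between 0.27 and 0.73, and the genes below 0 are Cox6a2, Atp5g3 and Atp5g1.

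Complex II, succinate dehydrogenase, takes electrons from succinate in the citrate cycle, and its 4 genes were all higher, with a median difference of 0.32. Sdhc, which encodes a membrane anchor and was read by a probe at chr1:173059539-173059598 (mm9), had log2 signals of 3.65, 4.01, 3.78 and 3.98 in miR-126+/+ arrays 1 to 4 and of 4.17, 4.15, 4.31 and 4.32 in miR-126-/- arrays 1 to 4. All miR-126-/- arrays lay above all miR-126+/+ arrays, and the difference was 0.38 ± 0.11 (SE, adjusted p = 0.267), or 1.31-fold. Its second probe gave 0.23.

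Sdhd, the other membrane anchor (probe at chr9:50404630-50404689), had 4.66, 4.93, 4.68 and 4.85 in miR-126+/+ and 4.97, 5.01, 5.38 and 5.22 in miR-126-/- arrays. The groups again did not overlap, with array miR-126-/- 3 highest and a difference of 0.36 ± 0.12 (adjusted p = 0.35). Sdhb, the iron-sulphur subunit, had 5.52, 5.75, 5.77 and 5.80 against 5.71, 5.83, 5.98 and 6.17. Here miR-126-/- 1 fell among the miR-126+/+ arrays, and the difference was 0.22 ± 0.12 (adjusted p = 0.638), or 0.13 without miR-126-/- 4. Sdha, the flavoprotein that binds succinate, had 4.08, 4.45, 4.16 and 4.46 against 4.39, 4.50 and 4.83, with no value for miR-126-/- 4. Its difference of 0.28 ± 0.16 (n = 4 and 3, adjusted p = 0.621) was 0.16 without miR-126-/- 3 and turned to -1.25 when the spot in the dim area was kept.

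Complex III, which hands electrons from ubiquinol to cytochrome c, had the largest median difference of the complexes, 0.42. All 9 of its genes were higher, with differences from 0.27 to 0.73, all 9 had an unadjusted p under 0.05, and in 6 the groups did not overlap. The adjusted p ran from 0.230 to 0.424, so that 0 passed. Whether complex III differs from the other complexes was not tested.

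Uqcr11, a small accessory subunit (chr10:79865745-79865804), had 5.05, 5.35, 5.36 and 5.32 in miR-126+/+ and 5.52, 5.75, 5.93 and 5.97 in miR-126-/- arrays. Array miR-126+/+ 1 stood below its own group, and the difference was 0.52 ± 0.13 (1.43-fold, adjusted p = 0.230). Uqcrq, which lies beside cytochrome b (chr11:53242451-53242510), had 5.75, 5.96, 6.00 and 5.64 against 6.19, 6.19, 6.54 and 6.36. The groups were separate, with a difference of 0.48 ± 0.12 (1.40-fold, adjusted p = 0.243), and its second probe gave 0.49. Uqcrb, which helps bind ubiquinone (chr13:67001654-67001713), had 4.76, 4.78, 4.91 and 4.81 against 4.98, 5.17, 5.43 and 5.23. The miR-126+/+ arrays were close together (SD 0.07) and all below the others, with a difference of 0.39 ± 0.11 (adjusted p = 0.263). Its other probes gave 0.33 and 0.32, the last with no value for miR-126-/- 4.

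Uqcrc1, a core protein on the matrix side (chr9:108851008-108851487), had 3.24, 3.48, 3.22 and 3.51 in miR-126+/+ and 3.82, 3.82, 4.20 and 3.68 in miR-126-/- arrays. The difference was 0.52 ± 0.14 (1.43-fold, adjusted p = 0.250). Cyc1, cytochrome c1, was singled out after its values were seen, as the member with the largest difference. It had 3.99, 4.57, 3.81 and 4.71 against 4.80, 4.80, 5.27 and 5.15 (chr15:76175938-76175997). Arrays miR-126+/+ 1 and 3 were low and miR-126-/- 3 and 4 high, and the difference of 0.73 ± 0.23 (1.66-fold, adjusted p = 0.307) carried a larger error than that of the other complex III genes. The remaining genes, Uqcrc2 (the partner core protein), Uqcrfs1 (the Rieske iron-sulphur protein), Uqcr10 and Uqcrh (accessory subunits), had differences of 0.42, 0.42, 0.40 and 0.27.

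**Figure D2:**
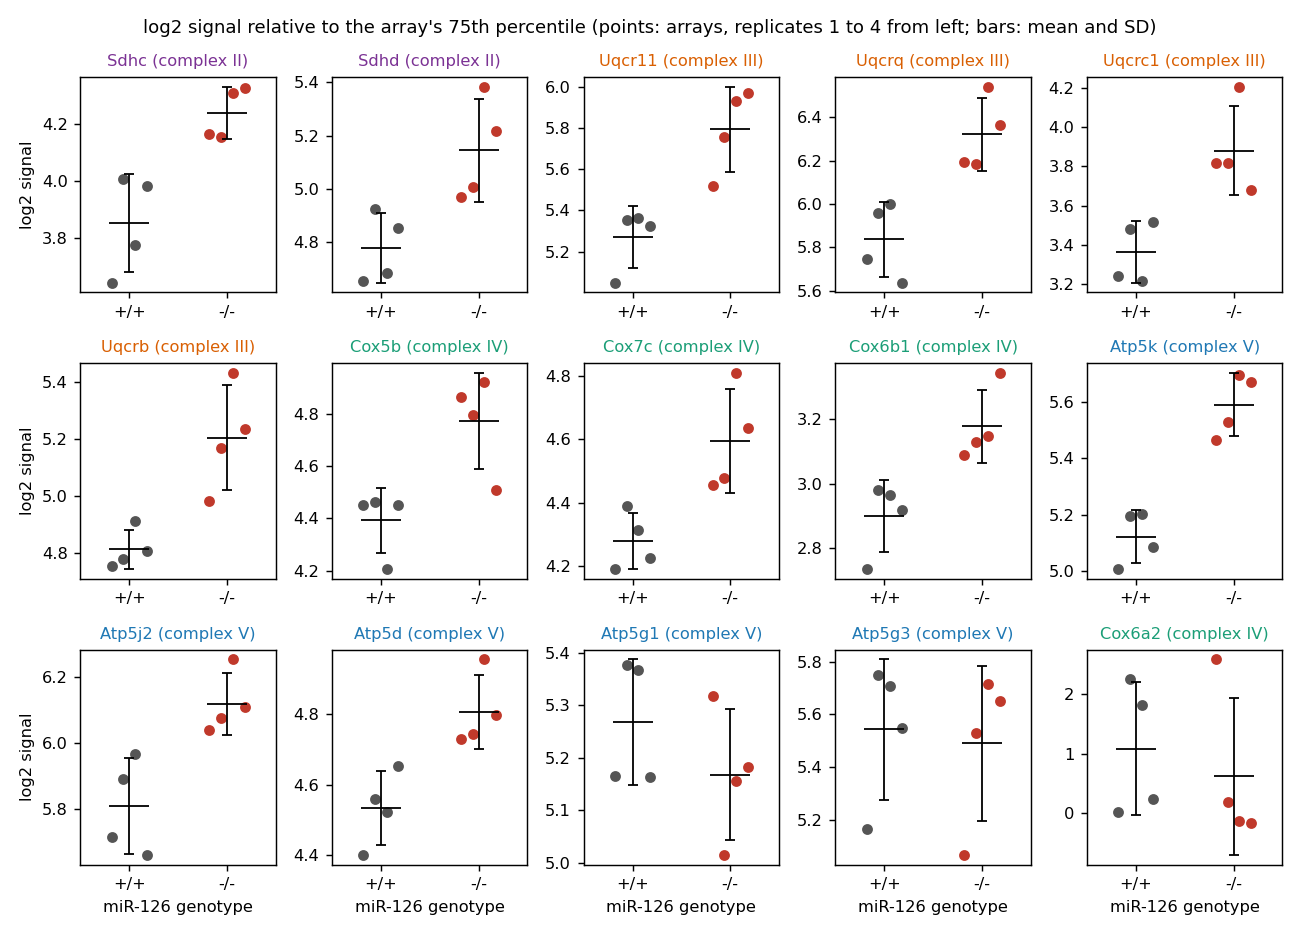
Log2 signal of 15 genes (scaled to the 75th percentile of the array), each in a panel with its own vertical scale; points are arrays, and bars are the mean and SD of 4 arrays per genotype. The genotypes do not overlap in the 12 panels from Sdhc to Atp5d, while they overlap in Atp5g1, Atp5g3 and Cox6a2.

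Complex IV, cytochrome c oxidase, reduces oxygen to water, and 12 of its 13 tested subunit genes were higher, with a median of 0.27. An unadjusted p under 0.05 was seen for 6 of them and separate groups for 3. With Cox4nb and Cox7a2l, which the names also take, 14 of 15 were higher. Cox5b, a zinc-binding subunit (chr1:36750171-36750230), had 4.45, 4.46, 4.21 and 4.45 in miR-126+/+ and 4.87, 4.80, 4.92 and 4.51 in miR-126-/- arrays. Array miR-126-/- 4 was just above the highest miR-126+/+ arrays, and the difference was 0.38 ± 0.12 (1.30-fold, adjusted p = 0.304). Cox7c, a membrane subunit (chr13:86186301-86186360), had 4.19, 4.39, 4.31 and 4.23 against 4.45, 4.48, 4.81 and 4.64, a difference of 0.32 ± 0.11 (adjusted p = 0.351). Its other probes disagreed in size, with 0.16 ± 0.26 and 0.46 ± 0.11.

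Isoforms of complex IV subunits differ in their tissues. Cox6a1, the common form, had 7.86, 7.95, 7.91 and 7.87 in miR-126+/+ and 7.93, 8.02, 8.16 and 8.21 in miR-126-/- arrays, a difference of 0.19 ± 0.09 (adjusted p = 0.55). Cox6a2, the form of heart and skeletal muscle (chr7:135349160-135349219), had 0.03, 2.26, 1.83 and 0.23 against 2.59, 0.19, -0.14 and -0.16. It was high on miR-126+/+ 2 and 3 and on miR-126-/- 1 and low on the other arrays, so that its difference of -0.47 ± 0.75 (adjusted p = 0.897) lay inside the spread within each genotype. With 1 array left out it ran from -1.12 without miR-126-/- 1 to -0.07 without miR-126+/+ 2. The mean of the skeletal muscle markers, each gene centred over the arrays, was also highest on these arrays, at 2.63 and 0.53 for miR-126+/+ 2 and 3 and 3.13 for miR-126-/- 1, and between -1.93 and 0.30 elsewhere. Cox6a2 had the largest within-genotype SD of the members, 1.23, where the median was 0.15 for members and 0.22 for all genes.

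Cox4i1, the common form of subunit 4, had 6.59, 6.82, 6.77 and 6.88 in miR-126+/+ and 6.79, 6.98, 7.15 and 7.04 in miR-126-/- arrays, a difference of 0.23 ± 0.11 (adjusted p = 0.55). Cox4i2, the form known from lung and vascular cells and from low oxygen, had -1.26, -1.25, -1.14 and -0.93 against -0.89, -0.71, -0.88 and -0.98. The only overlap was miR-126-/- 4, which lay below miR-126+/+ 4, and the difference was 0.28 ± 0.11 (adjusted p = 0.427). The difference of Cox4i2 minus that of Cox4i1 was not tested.

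Cox6b1, the common form of a subunit that faces the intermembrane space, had 2.74, 2.98, 2.96 and 2.92 against 3.09, 3.13, 3.15 and 3.34, with separate groups and a difference of 0.28 ± 0.10 (adjusted p = 0.374). Cox6b2, its form of testis, had -0.25, -0.30, -0.54 and 0.05 against -0.10, 0.07, 0.22 and -0.13, and these groups overlapped at a difference of 0.28 ± 0.14 (adjusted p = 0.585), or 0.18 without miR-126+/+ 3. Cox7b had a difference of 0.27 ± 0.12 (adjusted p = 0.482) and Cox8a one of 0.16 ± 0.11 (n = 4 and 3, adjusted p = 0.705), while their relatives Cox7b2 and Cox8c gave 0 of 4 arrays well above background in either genotype. The second Cox8a probe, which has a value on all 8 arrays, gave 0.15 ± 0.13. The difference of the brightest Cox8a probe was 0.11 without miR-126-/- 3.

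Cox7a1 and Cox8b, forms of heart, skeletal muscle and brown fat that the rule leaves out, were also higher. Cox7a1 had 1.34, 3.57, 2.98 and 3.54 in miR-126+/+ and 4.29, 4.39, 4.92 and 4.19 in miR-126-/- arrays, and Cox8b had 2.58, 4.84, 4.20 and 5.08 against 5.59, 5.60, 6.23 and 6.08. In both genes the groups were separate and miR-126+/+ 1 was far below the rest. The differences were 1.59 ± 0.48 and 1.70 ± 0.51, with an adjusted p of 0.296 for each.

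Complex V, ATP synthase, had the smallest median difference of the 4 complexes, 0.17, with 13 of 15 subunit genes higher, 3 at an unadjusted p under 0.05 and 3 with separate groups. With Atp5s and Atp5sl, which the names also take, 15 of 17 were higher and 4 had an unadjusted p under 0.05. The catalytic head showed differences of 0.16 for Atp5a1 (alpha) and 0.23 for Atp5b (beta). The central stalk showed 0.17 for Atp5c1 (gamma), 0.27 for Atp5d (delta) and 0.09 for Atp5e (epsilon). The outer stalk that holds the head showed 0.29 for Atp5o, 0.25 for Atp5f1, 0.19 for Atp5h and 0.11 for Atp5j. Atp5d (chr10:79608230-79608289) had 4.40, 4.56, 4.52 and 4.65 in miR-126+/+ and 4.73, 4.74, 4.96 and 4.80 in miR-126-/- arrays, with separate groups (0.27 ± 0.09, adjusted p = 0.365).

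Among the membrane subunits, Atp5k (subunit e, which joins ATP synthases into dimers) had the smallest p of all members. Its log2 signals were 5.01, 5.19, 5.20 and 5.09 in miR-126+/+ and 5.46, 5.53, 5.70 and 5.67 in miR-126-/- arrays. The groups were separate by more than the range of either, and the difference was 0.47 ± 0.09 (1.38-fold, adjusted p = 0.159). A second probe gave 0.54 ± 0.11. The files place the Atp5k probe on an unplaced part of chromosome 1 in mm9, while RefSeq places the gene on chromosome 5 in GRCm38.p6. Atp5j2 (subunit f) had 5.71, 5.89, 5.97 and 5.66 against 6.04, 6.07, 6.25 and 6.11, a difference of 0.31 ± 0.10 (adjusted p = 0.334). Atp5l (subunit g) gave 0.13 with its brightest probe and 0.53, 0.31, 0.16 and 0.36 with the others.

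The ring of subunit c, which turns as protons pass, is encoded by 3 genes for the same mature protein, and each had a fitted difference about as large as its standard error or smaller. Atp5g1 (chr11:95934315-95934374) had 5.17, 5.38, 5.37 and 5.16 in miR-126+/+ and 5.32, 5.01, 5.16 and 5.18 in miR-126-/- arrays (-0.10 ± 0.10, adjusted p = 0.811), and the difference was -0.05 without miR-126-/- 2 and -0.06 without miR-126+/+ 2. Atp5g2 had 6.38, 6.30, 6.56 and 6.24 against 6.25, 6.39, 6.50 and 6.42 (0.02 ± 0.10, adjusted p = 0.961). Atp5g3 had 5.17, 5.75, 5.71 and 5.55 against 5.07, 5.53, 5.72 and 5.65 (-0.05 ± 0.18, adjusted p = 0.954). The groups overlapped throughout in these 3 genes, and the sign for Atp5g2 and Atp5g3 turned with the array left out. Without arrays miR-126+/+ 2 and miR-126-/- 1 the difference of Atp5g3 was 0.16.

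Of the genes taken by name that are no subunit, Atp5s had -2.67, -2.52, -3.17 and -2.35 against -2.37, -2.37, -2.07 and -2.20, a difference of 0.43 ± 0.18 (adjusted p = 0.473) at a low signal. Without miR-126+/+ 3, its lowest array, the difference was 0.26. Cox4nb, Atp5sl and Cox7a2l had 0.16, 0.13 and 0.03. Without these 4 genes, 38 of 41 subunits were higher, with the same median of 0.27. Where several probes of a gene were tested, in 16 genes, the 23 probes other than the brightest gave 22 higher and 1 lower, the second probe of Atp5f1 at -0.07 ± 0.19, with a median of 0.28.

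**Figure D3:**
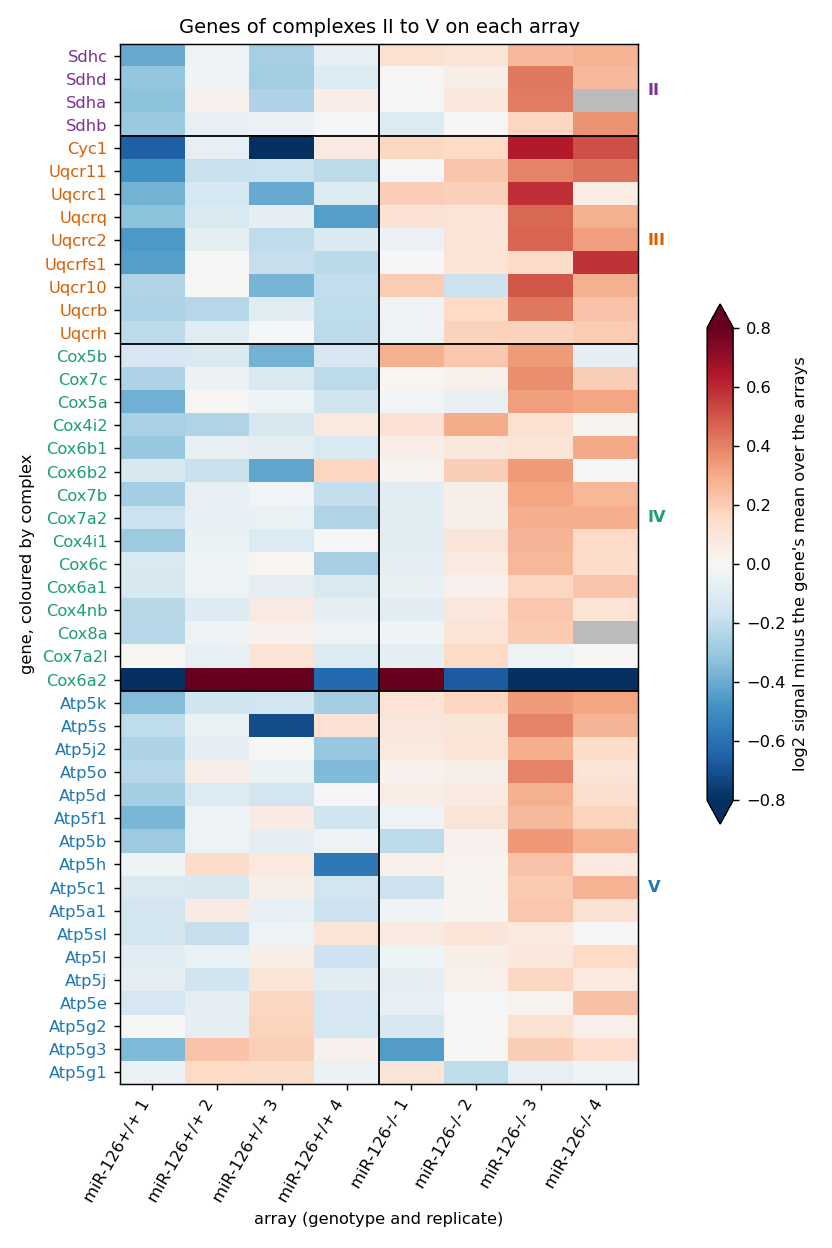
Log2 signal of each tested gene on each array minus the gene's mean over the arrays, by complex (rows) and array (columns); blue is below and red above the mean, grey has no value, and colours end at 0.8. Array miR-126-/- 3 was the highest of the 8 for 25 of the 43 genes with all values and miR-126+/+ 1 the lowest for 20; Cox6a2 follows other arrays.

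The members' levels were high or low together on single arrays as well as by genotype. Averaged over the 43 members with all values, each centred, the arrays miR-126+/+ 1 to 4 stood at -0.26, -0.03, -0.08 and -0.14, and miR-126-/- 1 to 4 at 0.04, 0.06, 0.24 and 0.17. The genotypes did not overlap, but miR-126+/+ 2 and miR-126-/- 1 were closer to each other than the SD within either genotype, 0.10. Array miR-126-/- 3 was highest for 25 of 43 members (58.1%) against 13.4% of all genes, and miR-126+/+ 1 lowest for 20 (46.5%) against 11.9%. Complex III showed the widest span, from -0.38 on miR-126+/+ 1 to 0.42 on miR-126-/- 3. Complex V, with all 17 genes taken by name, overlapped between genotypes, since miR-126-/- 1, at -0.04, lay below miR-126+/+ 2 and 3, at -0.03 and -0.01.

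Other genes of mitochondrial energy metabolism were described from lists. In complex I, which feeds electrons from NADH into the same chain, 36 of 38 genes were higher and 2 lower (median 0.29). There 22 genes had an unadjusted p under 0.05, all higher, and the 2 with the smallest p were Ndufa5 (0.40 ± 0.10) and Ndufab1 (0.42 ± 0.11). The citrate cycle had 16 of 16 genes higher with a median of 0.45, and Dlst, a subunit of the 2-oxoglutarate dehydrogenase complex, differed by 0.46 ± 0.11 (adjusted p = 0.198). Fatty acid oxidation had 14 of 14 higher and a median of 0.75. Cpt1b, which brings long-chain fatty acids to the mitochondrion and is the form of muscle and brown fat, had -1.67, -0.42, -0.71 and -0.60 in miR-126+/+ and 0.97, 1.03, 1.15 and 0.88 in miR-126-/- arrays. Its difference was 1.86 ± 0.26 (adjusted p = 0.0562), and that of Cpt2, the inner membrane partner, was 1.06 ± 0.19 (adjusted p = 0.129).

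Other listed groups serve mitochondria without being part of the chain. Assembly factors of complexes II to V had 14 of 17 genes higher and a median of 0.12. Atpaf2, which assembles the head of ATP synthase, had 0.94, 1.21, 1.20 and 1.43 against 1.62, 1.79, 1.995 and 1.94 (0.64 ± 0.13, adjusted p = 0.165), and Uqcc, for complex III, differed by 0.30 ± 0.12. Among 11 electron carriers, exchangers and the ATP synthase inhibitor, 6 were higher and 5 lower with a median of 0.02 (mean over the genes 0.20), and Etfb and Etfdh, which pass electrons from fatty acid oxidation to ubiquinone, differed by 0.81 ± 0.17 and 0.61 ± 0.19. Of 13 regulators of mitochondrial genes, 11 were higher with a median of 0.12 (mean 0.24). Those with the smallest p were the coactivator Ppargc1b (1.30 ± 0.39, adjusted p = 0.293) and the nuclear receptor Esrra (0.28 ± 0.09, adjusted p = 0.344). Ppargc1b had low signals, -4.38, -3.58, -4.77 and -3.40 in miR-126+/+ and -2.48, -2.29, -2.56 and -3.61 in miR-126-/- arrays. Its groups overlapped, and only 3 of 4 miR-126+/+ arrays were well above background.

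The mitochondrial ribosome had 69 of 75 genes higher and a median of 0.10, with Mrpl55 at 0.53 and Mrps18a at 0.29. The cytosolic ribosome had 32 of 78 higher and a median of -0.01, with Rpl39l at -1.02 ± 0.29 and Rps13 at -0.30 ± 0.15. Rpl39l had low signals, with a mean of -2.76 in miR-126+/+ and -3.78 in miR-126-/- arrays. The V-type ATPase, a proton pump of lysosomes that is related to ATP synthase, had 3 of 20 higher and a median of -0.08, with Atp6v1c1 at -0.17 ± 0.08 and Atp6v1c2 at 0.85 ± 0.47. Atp6v1c2 was well above background on only 2 of 4 miR-126+/+ arrays but on 4 of 4 miR-126-/- arrays, through which it entered the test. In every list of mitochondrial, ribosomal and V-type ATPase genes named here, and in every marker list, 0 genes passed the adjusted threshold of limma. At an unadjusted p under 0.05, fatty acid oxidation had 10 of 14 genes, the citrate cycle 8 of 16, assembly factors 3 of 17, carriers 4 of 11, regulators 3 of 13, the mitochondrial ribosome 8 higher and 1 lower of 75, the cytosolic ribosome 1 lower of 78 and the V-type ATPase 0 of 20.

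The subunits encoded by mitochondrial DNA were listed after their probes had been seen. Of 12 such genes, 10 were higher (median 0.42), 6 of them at an unadjusted p under 0.05. These 6 were ND1, ND2, ND3, ND4L and ND5 of complex I and ATP8 of complex V. The listed genes of complexes III to V were CYTB (-0.31 ± 0.32), COX1 (0.45 ± 0.41), COX2 (0.14), COX3 (0.19) and ATP8 (0.59 ± 0.19, adjusted p = 0.328). ATP6 was not in the list. The files place some of these probes on chromosome 1, so that mitochondrial transcripts and nuclear copies of them cannot be told apart here.

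**Figure D4:**
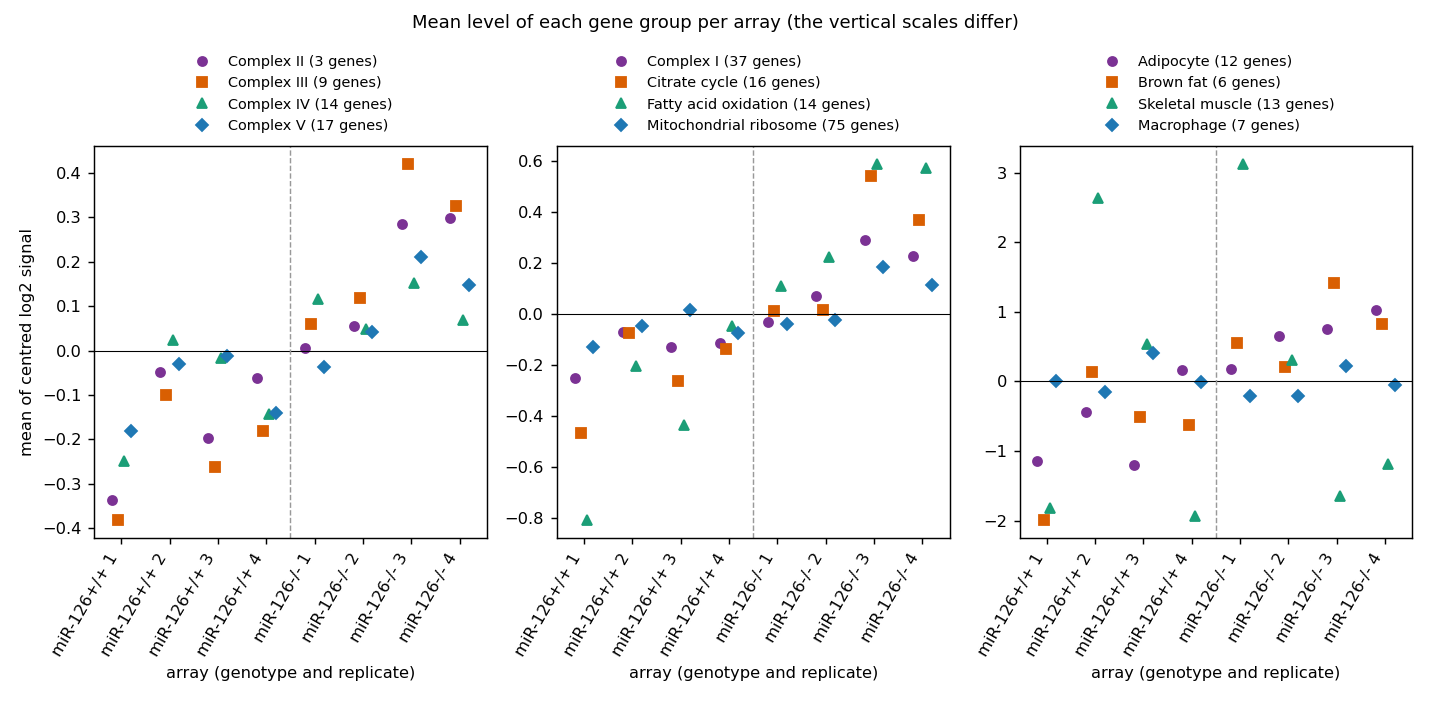
Mean of the centred log2 signals of each gene group on each array, with complexes II to V at left, other mitochondrial groups in the middle and cell type markers at right, on different vertical scales. The miR-126-/- arrays 3 and 4 are high in complexes II, III and V and in fatty acid oxidation, and the skeletal muscle markers are highest on miR-126+/+ 2 and miR-126-/- 1.

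Markers of fat were high on the same group of arrays as the members. All 12 adipocyte markers tested were higher in miR-126-/- arteries, by a median of 1.33, with 11 at an unadjusted p under 0.05 and 7 with separate groups. Their centred mean lay between -1.19 and 0.17 in the miR-126+/+ group and between 0.17 and 1.03 in the miR-126-/- group, and 11 of the 12 were well above background on all arrays. The exception, Lep (0.75 ± 0.93, adjusted p = 0.857 in limma), was so on 2 of 4 miR-126+/+ and 4 of 4 miR-126-/- arrays. Lep entered the test only through the miR-126-/- group, so its place among the 12 higher markers carries no weight. The 6 brown fat markers tested, of 7 with Elovl3 not tested and with Cox7a1 and Cox8b among them, were also all higher, by a median of 1.65, 4 of them at an unadjusted p under 0.05, and their centred mean was -1.99 to 0.13 against 0.21 to 1.41. Ucp1, which defines brown fat, had -0.53, 4.01, 3.09 and 0.72 in miR-126+/+ and 4.01, 2.82, 5.28 and 3.94 in miR-126-/- arrays, a difference of 2.19 ± 1.01 (adjusted p = 0.523). It was lowest on miR-126+/+ 1 and highest on miR-126-/- 3, the arrays that were also lowest and highest for more members than any other array. Adipoq, which defines adipocytes, had 3.30, 3.86, 3.62 and 5.34 against 4.55, 5.09, 5.59 and 5.74 (1.21 ± 0.46, adjusted p = 0.42), and here miR-126+/+ 4 lay among the miR-126-/- arrays, while the members' mean on that array was -0.14. The part of fat markers in the members' differences was not tested.

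Markers of other cell types are given for comparison. The 13 skeletal muscle markers tested, of 14 with Mylpf not tested, had 11 higher, a median of 0.22 and 0 at an unadjusted p under 0.05 (centred mean -1.93 to 2.63 against -1.65 to 3.13). Without the arrays highest in them, miR-126+/+ 2 and miR-126-/- 1, 43 of 45 members were higher with a median of 0.33. The 8 smooth muscle markers had 7 higher and a median of 0.21 (centred mean -0.35 to -0.03 against -0.06 to 0.48), and the 8 endothelial markers 7 higher and a median of 0.24 (-0.25 to 0.02 against -0.11 to 0.30). The 7 macrophage markers tested, of 8 with Cd163 not tested, had 1 higher and a median of -0.15 (-0.16 to 0.41 against -0.21 to 0.22). In limma 1 smooth muscle marker and 2 endothelial markers were higher at an unadjusted p under 0.05, as were 6.63% of all genes. For macrophage markers this number was 0, higher or lower. The part of these markers in the members' differences was not tested either.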

How the data were processed

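Gene expression was measured on Agilent mouse arrays read in 1 colour, with 4 miR-126+/+ and 4 miR-126-/- mice grouped by the labels. Per the labels' protocols, 100 ng of total RNA was labelled with Cy3. Per the file headers and the submitters' processing notes, Agilent Feature Extraction 10.7.3.1 made the values used, which are deposited processed signals, an intensity on a linear scale after background subtraction. Probe positions are those of the files (mm9); exon and UTR annotation was not used here.

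Control spots, outlier flags and the spots of rows 55 to 100 and columns 56 to 70 of array miR-126-/- 4 were left out, spots of a probe were averaged, and log2 signals were set relative to the array's 75th percentile. A probe entered when well above background on at least 3 of 4 arrays of a genotype, and the brightest probe stood for each gene name of the files. A lower probe therefore does not enter the main values. Array number limits the precision. The genotype comparison used lmFit and eBayes of limma 3.58.1 (R 4.3.3) with no covariate and 6 residual degrees of freedom, two-sided, with Benjamini-Hochberg adjustment over all genes and a threshold of 0.05. The fit was tested on simulated data. Files were read with pandas 2.3.3 and numpy 2.4.6 and figures drawn with matplotlib 3.10.9, under Python 3.11.15.

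The members and lists were chosen with earlier results of these data known, and lists were described by counts and medians, with no test of a list. Named members are those called, the 4 of each complex with the smallest p, those lower in miR-126-/-, Sdha, the isoform pairs of complex IV and the subunit c genes; of each list, at most the 2 genes with the smallest p, of which 1 is not reported here. Cyc1, other members given by their difference alone, mitochondrially encoded subunits, Ucp1, Adipoq and Lep were named outside this rule, after their values were seen. The lists were complex I, assembly factors, carriers and inhibitor, citrate cycle, fatty acid oxidation, regulators, both ribosomes, V-type ATPase and markers of 6 cell types.

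Alternatives tried were quantile normalization, normexp (offset 50) for the background, the percentile over probes seen on all arrays, the deposited table, dim probes all kept or more strictly removed, a gene's probes averaged, the dim area kept, array weights, an intensity trend in the variance, a block for replicate number, each array left out, and both arrays highest in skeletal muscle genes left out. Each probe of a member on its own was added after seeing the data. The replicate numbers gave little sign of a pairing: the correlations of same-numbered arrays' deviations were 0.21, -0.31, -0.04 and 0.02. With so few arrays these values cannot exclude a pairing.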

Additional observations from a re-analysis of the deposited data

Results flagged for a closer look

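Among 58 groups of 4 arrays, 48 of single named members and 10 of the mean over all members or over a complex, 3 held an array whose distance to the nearest of the others, as a share of the group's range, was above Dixon's critical value. Chance gives such an array in about 1 in 20 groups. Cox5b was low on miR-126+/+ 3, at a log2 signal of 4.21 against 4.45 to 4.46 on the other miR-126+/+ arrays. Cox6a2 was high on miR-126-/- 1, at 2.59 against -0.16 to 0.19. Uqcr11 was low on miR-126+/+ 1, at 5.05 against 5.32 to 5.36.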

How the results depend on the processing

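In all 20 alternatives 0 members passed the adjusted threshold in limma; the smallest adjusted p of a member ran from 0.0893 with array weights to 0.371 without miR-126-/- 3. Members higher in miR-126-/- numbered 41 to 43 with all arrays or without both muscle-rich arrays, and 40 to 43 with 1 array left out, when the median difference ran from 0.21 to 0.32 and the members at an unadjusted p under 0.05 from 12 (without miR-126+/+ 1) to 24. The median of complex III ran from 0.38 to 0.53 and that of complex V from 0.14 to 0.22 with 1 array left out. Of 500 values of 25 named members, 491 kept their direction. Sdha reversed to -1.25 with the dim area kept. Atp5g3 reversed to 0.053 with array weights and to 0.16 without both muscle-rich arrays, and with 1 array left out it ran from -0.18 to 0.088 and Atp5g2 from -0.021 to 0.086. The cause was not tested. The count of all genes called, 30, was 12 with no filter, 12 with the stricter filter, 11 with the mean of a gene's probes, 73 with array weights, 0 without both muscle-rich arrays (2055 at an unadjusted p under 0.05), and 0 to 71 with 1 array left out. With the replicate number as a block, 0 genes were called in limma (2230 at an unadjusted p under 0.05), with 42 members higher, a median of 0.27 and 16 members at an unadjusted p under 0.05. Only replicate 1 correlated best with its own number, and whether the numbers pair the arrays is not known. Every scaling moved the median of all genes by less than 0.1 on the log2 scale. The number of arrays limits what can be called, and Atp5s, Cox4i2, Atp6v1c2, Ppargc1b, Rpl39l and Lep rest on low signals.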
